A study of Mus musculus with 9 samples.

Results

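The 41 genes described here belong to the ATF4 and integrated stress programme. They were taken from a fixed list of gene names, chosen with earlier results of these data known. Per gene 1 probe set was used, the one of highest mean log2(signal + 16) over the 9 arrays. By role, 12 are transcription factors and signalling proteins, 9 are enzymes of amino acid synthesis, 7 are amino acid transporters, 10 are cytosolic tRNA synthetases and 3 are other targets. A probe set was found for 40 of the 41, of the 18193 genes with a single-gene probe set in the series. All 40 lay above the level used to leave out low signals, and so stood among the 10613 genes tested. Pycr1, an enzyme of proline synthesis, had no probe set under that name, and Mars was matched through its newer symbol Mars1.

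The samples were 9 cultures of the established mouse fibroblast line NIH 3T3, derived from embryos, with 3 biological replicates per group. One group was transduced with a retroviral vector carrying an shRNA against Ube2m, one with an shRNA against Ube2f and one with a control shRNA. RNA was taken 5 days after transduction and measured on 1-colour Affymetrix arrays. Ube2m and Ube2f are the conjugating enzymes that pass the ubiquitin-like protein NEDD8 to its targets, chief among them the cullins of cullin-RING ubiquitin ligases. The growth label describes the cells of every group, controls included, as expressing Ube2f, in Dulbecco's medium with added glutamine and calf serum. The labels do not say whether a knockdown rests on 1 hairpin or on several.

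In the integrated stress response, kinases that sense amino acid shortage, unfolded protein in the endoplasmic reticulum, haem shortage or viral RNA phosphorylate the translation factor eIF2. General translation then falls, while the mRNA of ATF4, a basic leucine zipper factor, is translated better. ATF4 pairs with C/EBP proteins on composite C/EBP-ATF elements and raises genes for amino acid synthesis, uptake and tRNA charging, and feedback proteins such as Ppp1r15a and Trib3 later dampen the response. ATF4 activity is set largely through translation and protein turnover, neither of which an mRNA array measures.

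Promoter sequences from RefSeq (build GRCm38.p6, 250 bases before to 50 after each gene's start) were available for 34 of the 41 genes. The core of the composite element was searched as TGATGNAA on both strands, where N is any base. It was present in 12 of the 34 promoters, a share of 35.3%, against 1219 of 27025 promoters of all genes, a share of 4.51%. The 12 genes were Atf3, Trib3, Nupr1, Asns, Pycr1, Slc1a4, Gars, Iars, Aars, Tars, Chac1 and Vldlr. By role, the core stood in 4 of 7 tRNA synthetase promoters, 3 of 11 promoters of factors and signalling genes, 2 of 8 synthesis promoters, 1 of 5 transporter promoters and 2 of 3 promoters of other targets. The full cAMP-response palindrome TGACGTCA, which does not overlap these cores, stood in 1 of the 34 promoters, that of Ppp1r15a, against 549 of 27025 promoters, a share of 2.03%.

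The windows below belong to 6 genes that carry the core and whose mRNA differed between the knockdowns with or without the replicate number as a block. Each is written 5′ to 3′ on the strand of the gene, with the match in capitals. A match written TTGCATCA, TTTCATCA or TTACATCA is the core read from the opposite strand. They lie at chr6:7693210-7693269 (Asns, minus strand), chr15:11399659-11399718 (Tars, minus strand), chr2:119351023-119351082 (Chac1, plus strand), chr11:20332710-20332739 (Slc1a4, minus strand), chr6:55037941-55038000 (Gars, plus strand) and chr2:152344039-152344068 (Trib3, minus strand).
Asns: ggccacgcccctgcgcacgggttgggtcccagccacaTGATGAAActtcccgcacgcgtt
Tars: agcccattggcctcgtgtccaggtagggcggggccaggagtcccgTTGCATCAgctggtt
Chac1: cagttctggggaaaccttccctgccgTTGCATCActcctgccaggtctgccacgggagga
Slc1a4: agcctccagcgtgcctcctgcgTTGCATCA
Gars: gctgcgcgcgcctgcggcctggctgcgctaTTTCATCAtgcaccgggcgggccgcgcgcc
Trib3: tcagcagcagattagctcaggtTTACATCA
The core of Asns ran from base -23 to base -16 relative to the start, that of Tars from -15 to -8 and that of Chac1 from -193 to -186. A match of letters is a description of these windows and not evidence of binding.

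Across the arrays, Ube2f itself had signals of 134.9, 117.9 and 143.8 on the Ube2f shRNA arrays, 3028.6, 3140 and 2700.4 on the Ube2m shRNA arrays, and 2366.7, 2492 and 2757.1 on the control shRNA arrays. The Ube2f shRNA arrays thus lay far below both other groups, a log2 fold change of -4.11 against control (limma, adjusted p = 7.45e-10). No single-gene probe set carried the name Ube2m, so that knockdown was not checked here. Of 10 fibroblast markers, 9 were above the low level on these arrays (Lum was not), whereas none of 7 endothelial and none of the 5 adipocyte markers with a probe set was. Among the fibroblast markers, Pdgfra was higher with Ube2f shRNA than control (log2 fold change 0.72, limma adjusted p = 0.00997). Thy1 was lower with Ube2m shRNA than control (-0.70, adjusted p = 0.0163). Both, and Pdgfrb, were lower with Ube2m than with Ube2f shRNA (-0.96, -0.67 and -0.51). Col1a1, Col1a2, Col3a1, Fn1, Vim and S100a4 were not called in any comparison. The summed signal of 7 epithelial markers, led by Krt14, was 5742.5 to 6471 on Ube2m shRNA arrays, 2682.4 to 4197.1 on Ube2f shRNA arrays and 3186.8 to 5348.5 on control shRNA arrays, with 3 of the 7 above the low level. Skeletal muscle markers, led by Acta1 (3 of 7 above the low level), summed to 1125.6 to 1278 on Ube2m shRNA arrays, 674.7 to 791.5 on Ube2f shRNA arrays and 694.6 to 925.4 on control shRNA arrays. Macrophage markers (3 of 8 above the low level) summed to 912.9 to 1102.4 with Ube2m shRNA, 753.7 to 804.2 with Ube2f shRNA and 912.3 to 978.7 with control shRNA. Their part in the results was not tested.

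Some arrays stood apart within their groups. The median signal was 53.3 to 58.5 on the arrays of replicates 1 and 2, but 73.2, 73.5 and 64 on the replicate 3 arrays of Ube2m shRNA, Ube2f shRNA and control shRNA. The 3′ to 5′ signal ratio of beta-actin, a measure of RNA integrity, was 1.82 on control replicate 1 and 1.24 to 1.35 on the other arrays. Gene by gene values are drawn in the heat map of the 40 genes.

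**Figure D1:**
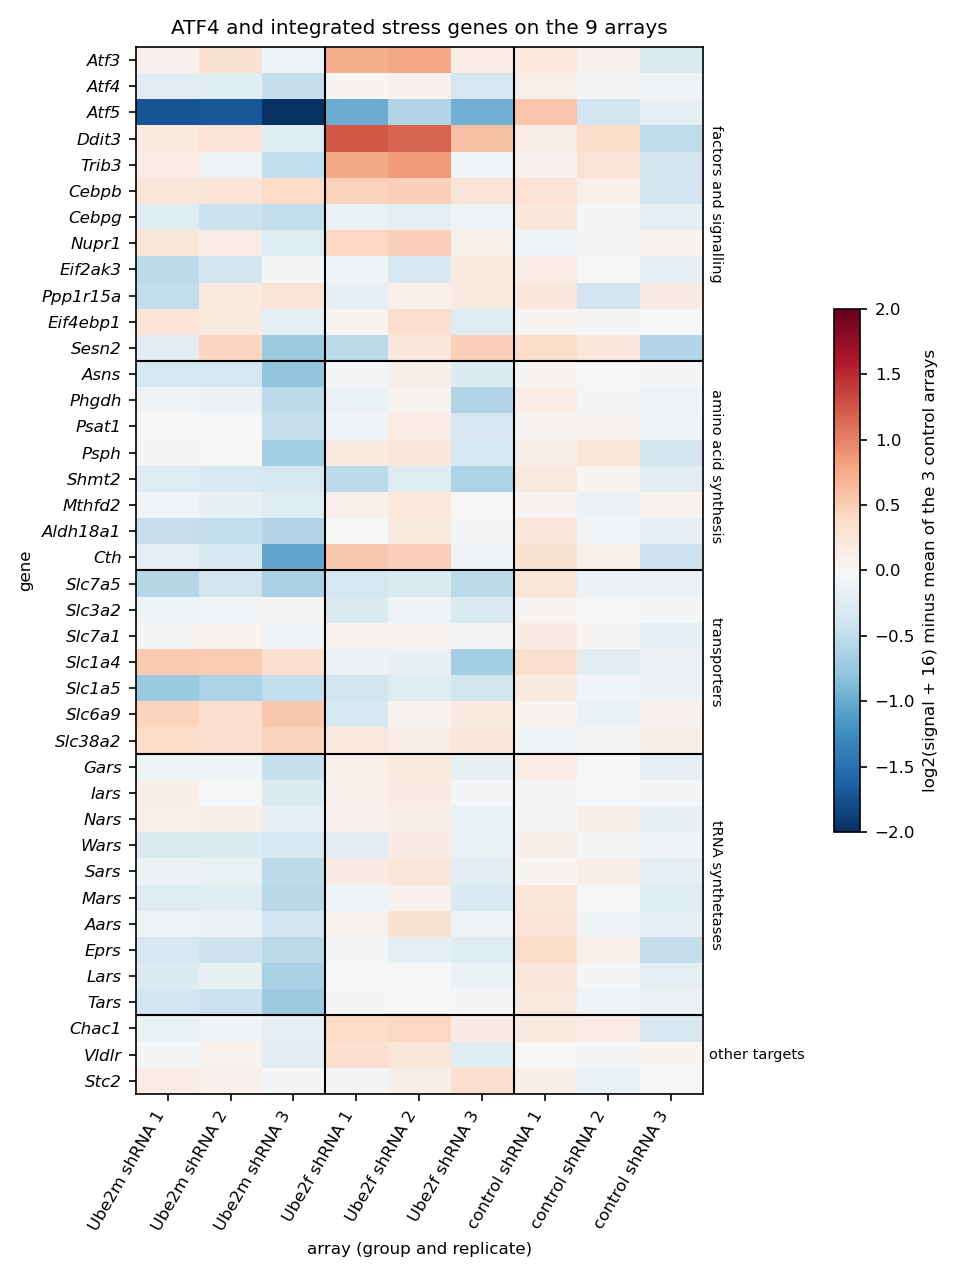
Level of each of the 40 genes (rows, grouped by role) on each of the 9 arrays (columns, by group and replicate), as log2(signal + 16) minus the mean of the 3 control shRNA arrays, in colour from -2 to 2. Atf5 is low on all Ube2m shRNA and Ube2f shRNA arrays, Ddit3 is high on the Ube2f shRNA arrays, and the replicate 3 array of Ube2m shRNA is the lowest for many enzymes and synthetases.

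With Ube2m shRNA, 1 of the 40 genes rose against control, the transporter Slc38a2, and 6 fell: Atf5, Asns, Aldh18a1, Slc7a5, Slc1a5 and Tars. These 7 are 17.5% of the 40, beside 9.71% of all 10613 genes called by limma in this comparison (3.59% higher and 6.12% lower; threshold 0.05 on the adjusted p). The median log2 fold change of the 40 was -0.19, with 30 below 0, against a median of -0.04 over all genes tested. It was -0.17 from replicates 1 and 2 and -0.26 from replicate 3. The 3 arrays of each group did not overlap for 3 genes with higher and 10 genes with lower signals under Ube2m shRNA, 13 of 40 in all, beside 29.7% of all genes tested. The 7 calls fell to 2 without control replicate 1, to 4 without Ube2m replicate 1, and to 3 when either of the other Ube2m arrays was left out, and to 2, Atf5 and Slc1a5, when the beta-actin ratio entered the model or when each array was centred on its median. The median of the 40 became -0.09 without Ube2m replicate 3, -0.12 without control replicate 1 and -0.30 without control replicate 3.

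With Ube2f shRNA, 1 gene rose against the same control arrays, Ddit3, and 2 fell, Atf5 and Shmt2. These 3 are 7.5% of the 40, beside 5.19% of all genes tested (2.23% higher and 2.96% lower). The median log2 fold change was 0.03, with 22 genes above 0 and 18 below, against 0.01 over all genes. Its sign rested on single arrays. It was 0.07 (28 above 0 and 12 below) without control replicate 1, 0.05 without Ube2f replicate 3, 0.01 without Ube2f replicate 1, -0.03 without Ube2f replicate 2 and -0.05 (16 above 0 and 24 below) without control replicate 3. The arrays did not overlap for 3 genes with higher and 5 with lower signals, beside 23.2% of all genes tested. None of the 3 limma calls remained without Ube2f replicate 1, without control replicate 1, when the beta-actin ratio entered the model or when each array was centred on its median. Those 4 fits had 5, 7, 6 and 4 of the 40 at an unadjusted limma p under 0.05. In the same fits 1519, 1749, 1651 and 1498 of the 10613 genes tested did. The main fit had 10 of the 40 (5 higher and 5 lower), beside 2147 of the 10613.

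Set directly against each other, the knockdowns differed at 9 of the 40 genes. With Ube2m shRNA, Slc1a4 and Slc6a9 were higher than with Ube2f shRNA, and Atf5, Ddit3, Asns, Aldh18a1, Cth, Tars and Chac1 were lower. These 9 are 22.5% of the 40, beside 15.8% of all genes tested (6.37% higher and 9.38% lower). The median log2 fold change was -0.24, with 34 of 40 below 0, against -0.04 over all genes, and it was -0.23 from replicates 1 and 2 and -0.25 from replicate 3. The arrays did not overlap for 3 genes with higher and 14 with lower signals under Ube2m shRNA, beside 34.4% of all genes tested. The replicate numbers are those of the sample titles, but treating same-numbered arrays of these knockdowns as pairs was a choice made from the data. The 9 calls come from the fit without that pairing. Only the replicate 3 arrays stood clearly apart, at a correlation of 0.557 beside 0.192 to 0.276 among replicates 1 and 2. With the replicate block 13 genes passed. With each array centred on its median, Atf5 alone passed. Leaving out Ube2m replicate 2 left 5 of the 9 calls, and leaving out Ube2m replicate 3 left 3 and a median of -0.16. Leaving out Ube2f replicate 1 left 3 calls, and leaving out Ube2f replicate 2 left 4.

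**Figure D2:**
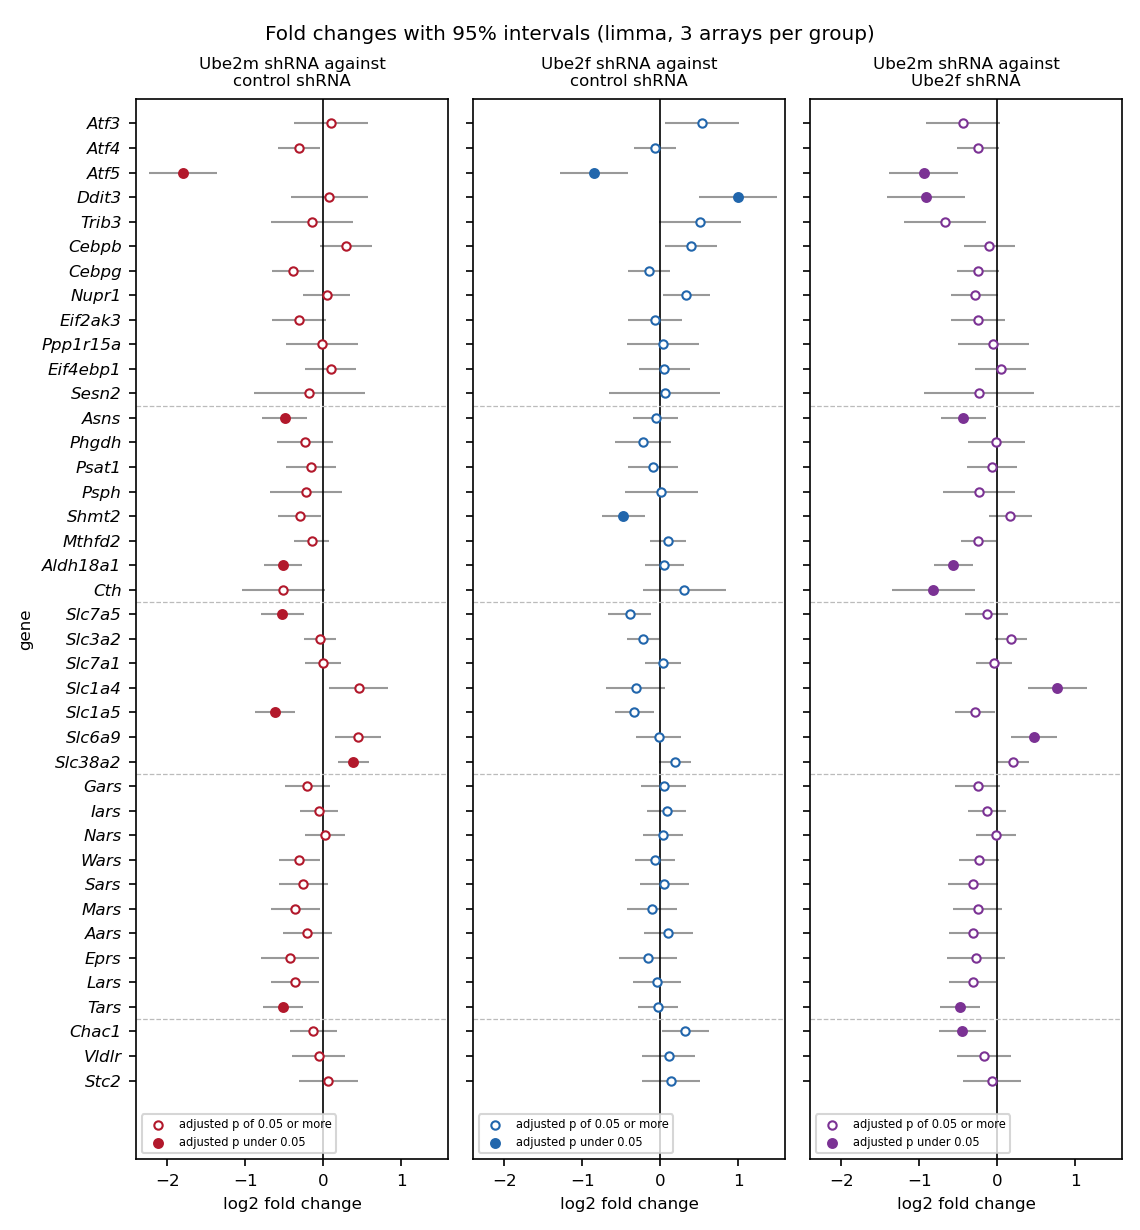
Log2 fold change (horizontal axis, point) with its 95% interval (line) of each of the 40 genes in the 3 comparisons, from limma with 3 arrays per group; filled points have an adjusted p under 0.05. Filled points number 7 and 3 for Ube2m and Ube2f shRNA over control and 9 between the knockdowns, and Atf5 lies left of 0 in all panels.

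Among the factors and signalling genes, Atf5 was the member called in all 3 comparisons. Atf5 encodes a bZIP factor closely related to ATF4, whose mRNA is likewise translated better under stress. Atf5 gave signals of 1202.5, 1231.5 and 1008.7 with Ube2m shRNA, 2015.1, 2635.3 and 2055.5 with Ube2f shRNA, and 5910.9, 3102 and 3561.9 with control shRNA. The groups did not overlap, with Ube2m shRNA lowest, Ube2f shRNA between and control highest, and control replicate 1 stood well above the other controls. Atf5 averaged 1148 ± 121 with Ube2m shRNA, 2235 ± 347 with Ube2f shRNA and 4192 ± 1507 with control shRNA (SD, n = 3 each). Its log2 fold change was -1.80 (SE 0.20) for Ube2m shRNA against control (limma, adjusted p = 0.000229), or 0.287 times the control level. That call held in the 17 alternative fits that tested Atf5, with adjusted p from 5e-05 to 0.00156, and leaving out an array moved the log2 fold change between -1.99 and -1.53. For Ube2f shRNA against control it was -0.86 (SE 0.20; limma, adjusted p = 0.0283). That call was lost without Ube2f replicate 1, Ube2f replicate 3 or control replicate 1, and the adjusted p over all fits ran up to 0.13. Between the knockdowns Atf5 was lower with Ube2m shRNA, at -0.95 (SE 0.20; limma, adjusted p = 0.00719), and passed in the same 17 alternative fits. Its 1 probe set is of a type that may match several transcripts of a gene.

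Ddit3, the C/EBP-family factor CHOP, was called with Ube2f shRNA and not with Ube2m shRNA against control, and differed between the knockdowns. Ddit3 gave signals of 1014.3, 1077.6 and 741.5 with Ube2m shRNA, 2103.6, 1990.5 and 1329.2 with Ube2f shRNA, and 967.6, 1145 and 616.7 with control shRNA. All Ube2f shRNA arrays were above all others, the Ube2m shRNA and control arrays overlapped, and replicate 3 was the lowest array of each group. Ddit3 rose with Ube2f shRNA by a log2 fold change of 1.00 against control (SE 0.23; limma, adjusted p = 0.0261), 1.99 times its level. With Ube2m shRNA the log2 fold change against control was 0.08 (95% interval -0.42 to 0.58), and against Ube2f shRNA it was -0.91 (SE 0.23; limma, adjusted p = 0.0173), a call lost without Ube2m replicate 3, Ube2f replicate 1 or Ube2f replicate 2 and with each array centred on its median (adjusted p = 0.0911). A dimmer Ddit3 probe set, averaging 107 over the arrays, gave 0.35 and 1.01 against control for Ube2m and Ube2f shRNA, and -0.66 between the knockdowns. The rise with Ube2f shRNA was lost without Ube2f replicate 1, Ube2f replicate 2, control replicate 1 or control replicate 3, with adjusted p up to 0.172 over all fits.

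Atf4 mRNA gave signals of 9910, 9727.5 and 8326.6 with Ube2m shRNA, 11879.3, 12230.1 and 9143 with Ube2f shRNA, and 12347.1, 11377.1 and 10951.8 with control shRNA. The Ube2m shRNA arrays were all below the control arrays, while the Ube2f shRNA arrays overlapped both. The log2 fold change of Atf4 against control was -0.31 for Ube2m shRNA (95% interval -0.58 to -0.04, limma adjusted p = 0.139). It was -0.07 for Ube2f shRNA (-0.34 to 0.20, adjusted p = 0.812) and -0.24 between the knockdowns (adjusted p = 0.227), and none of the 3 passed. A second Atf4 probe set, averaging 4734 over the arrays, gave -0.29 and 0.14 against control for Ube2m and Ube2f shRNA, and -0.43 between them. The Ube2m difference from control passed in 2 of 18 alternative fits, with the replicate block and with replicates 1 and 2 only. That between the knockdowns passed in 2 of 18, with replicates 1 and 2 only and without Ube2f replicate 3.

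Trib3, a pseudokinase that binds and inhibits ATF4, averaged 907 ± 198 with Ube2m shRNA, 1479 ± 462 with Ube2f shRNA and 1009 ± 228 with control shRNA (SD, n = 3 each). Between the knockdowns its log2 fold change was -0.67 (limma, adjusted p = 0.0861), which passed once the replicate number was a block (adjusted p = 0.0013). It passed in 4 of 17 alternative fits, the others being averaged probe sets, replicates 1 and 2 only and leaving out Ube2f replicate 3. Against control Trib3 was at -0.15 with Ube2m shRNA and 0.52 with Ube2f shRNA (limma, adjusted p = 0.768 and 0.257). A second Trib3 probe set gave -0.22 and 0.73 against control, and -0.95 between the knockdowns. Atf3, a bZIP factor that follows ATF4 in the response, had log2 fold changes against control of 0.10 with Ube2m shRNA and 0.54 with Ube2f shRNA, and -0.44 between the knockdowns, none of which passed (limma, adjusted p = 0.834, 0.184 and 0.21).

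Of the C/EBP partners, Cebpg had log2 fold changes of -0.39 with Ube2m shRNA and -0.14 with Ube2f shRNA against control (limma, adjusted p = 0.0671 and 0.567). Cebpb had 0.29 and 0.40 (adjusted p = 0.259 and 0.164), and Nupr1, a small stress-induced nuclear protein, had 0.04 and 0.33 (0.89 and 0.198). Eif2ak3, the endoplasmic reticulum kinase PERK, had -0.31 and -0.07 (0.254 and 0.871). Ppp1r15a, the phosphatase subunit GADD34 that undoes eIF2 phosphorylation, stood at -0.01 and 0.04. Eif4ebp1, a repressor of cap-dependent translation, had 0.09 and 0.05, and Sesn2, an inhibitor of mTORC1 signalling, had -0.18 and 0.06. None of these 7 genes passed in any of the 3 comparisons, and those between the knockdowns ran from -0.29 (Nupr1) to 0.04 (Eif4ebp1). The median over the 12 factors and signalling genes was -0.08 with Ube2m shRNA and 0.05 with Ube2f shRNA against control, and -0.25 between the knockdowns, where 11 of 12 were below 0. The first of these had no settled sign, since it was 0.06 without Ube2m replicate 3, 0.01 without control replicate 1, -0.15 without Ube2m replicate 2, and -0.04 and -0.25 when control replicate 2 or control replicate 3 was left out. The Ube2f median was 0.21 without Ube2f replicate 1, 0.19 without control replicate 1, 0.13 without Ube2f replicate 3, 0.10 without control replicate 2, 0.08 without control replicate 3 and 0.03 without Ube2f replicate 2.

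**Figure D3:**
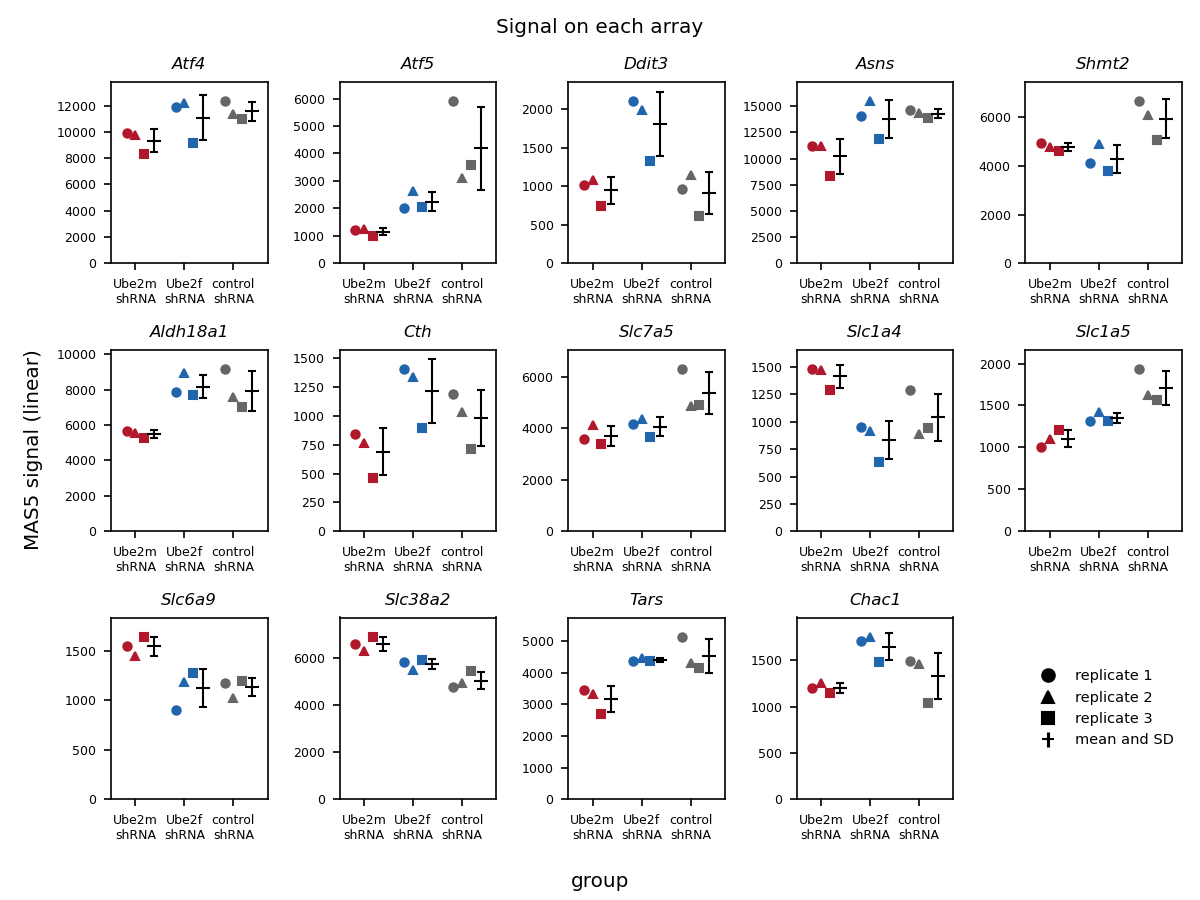
MAS5 signal (linear vertical axis from 0) of 14 genes on each array, by group, with marker shape for replicate and the mean and SD of 3 arrays beside the points. The 3 groups are apart for Atf5, Slc1a5 and Slc38a2, Ube2m shRNA lies below both other groups for Asns, Aldh18a1 and Tars, and Ube2f shRNA lies above both for Ddit3.

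All 8 measured enzymes of amino acid synthesis had negative log2 fold changes with Ube2m shRNA against control, from -0.51 to -0.15. Of the 8, Asns and Aldh18a1 passed, or 25%, beside 9.71% of all genes tested (6.12% lower). The median of the 8 was -0.27, against -0.04 over all genes. Without Ube2m replicate 3 the median was -0.17 and 6 of 8 were below 0, and without control replicate 3 the median was -0.41. Asns, which makes asparagine from aspartate and glutamine and whose promoter window is given above, had signals of 11193.1, 11207.6 and 8321.4 with Ube2m shRNA, 14062.4, 15509 and 11851.4 with Ube2f shRNA, and 14691.5, 14375.3 and 13847.9 with control shRNA. Every Ube2m shRNA array was below every other array, whereas Ube2f shRNA and control overlapped. The log2 fold change of Asns was -0.49 (SE 0.13) for Ube2m shRNA against control and -0.44 (SE 0.13) against Ube2f shRNA (limma, adjusted p = 0.0356 and 0.0431). For Ube2f shRNA against control it was -0.06 (95% interval -0.35 to 0.23). Both Asns calls were close to the threshold. The call against control passed only without Ube2f replicate 2 or Ube2f replicate 3 among the 9 fits that leave out an array, with adjusted p of 0.0535 to 0.123 in the other 7. The call against Ube2f shRNA was lost in 7 of 9 such fits, every one but those without Ube2f replicate 3 and control replicate 3. Of the other alternatives, 5 ended each call, with adjusted p up to 0.202 against control and 0.321 against Ube2f shRNA. The second Asns probe set gave -0.58 against control and -0.55 against Ube2f shRNA.

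Aldh18a1, an enzyme of proline synthesis from glutamate, had signals of 5676.5, 5574.6 and 5251 with Ube2m shRNA, 7841.2, 8924.3 and 7711.9 with Ube2f shRNA, and 9158.4, 7561.8 and 6999.6 with control shRNA. The Ube2m shRNA arrays lay close together below all others, and the other groups overlapped. Its log2 fold change was -0.51 (SE 0.11) for Ube2m shRNA against control and -0.57 (SE 0.11) against Ube2f shRNA (limma, adjusted p = 0.0157 and 0.00528). All 5 Aldh18a1 probe sets were lower with Ube2m shRNA, from -0.88 to -0.35 against control and from -0.75 to -0.49 against Ube2f shRNA. The call against control was lost without Ube2m replicate 2 or control replicate 1 (adjusted p 0.0597 to 0.0631), while that against Ube2f shRNA passed in all 9 fits without an array. Centring each array on its median ended both calls (adjusted p = 0.119 and 0.112), and the beta-actin ratio in the model ended the one against control (adjusted p = 0.0716).

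Cth, which forms cysteine from cystathionine, had signals of 844, 763.9 and 458.6 with Ube2m shRNA, 1406.9, 1335.1 and 895.8 with Ube2f shRNA, and 1189.4, 1036 and 715.5 with control shRNA. Replicate 3 was lowest in each group, and the knockdowns did not overlap. Between them the log2 fold change was -0.82 (SE 0.24; limma, adjusted p = 0.0387), lost without Ube2f replicate 1, Ube2f replicate 2, Ube2m replicate 2, Ube2m replicate 3 or control replicate 2, and with 4 of the other alternatives (adjusted p from 0.0547 to 0.152). Against control, Cth was at -0.51 with Ube2m shRNA and 0.31 with Ube2f shRNA, and neither passed (limma, adjusted p = 0.217 and 0.536).

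Shmt2, the mitochondrial serine hydroxymethyltransferase, had signals of 4963.2, 4788.2 and 4603.1 with Ube2m shRNA, 4110.4, 4916.9 and 3807.3 with Ube2f shRNA, and 6671.2, 6101.7 and 5062.5 with control shRNA. Both knockdowns were below control on every array and overlapped each other. Its log2 fold change was -0.47 (SE 0.12) for Ube2f shRNA against control and -0.30 (SE 0.12) for Ube2m shRNA against control (limma, adjusted p = 0.048 and 0.152), and the difference between the knockdowns, 0.17, did not pass (adjusted p = 0.42). The Ube2f call rested on the probe set chosen: averaging the 4 Shmt2 probe sets gave -0.18 (adjusted p = 0.634). It passed without control replicate 3 or Ube2f replicate 2 and in no other fit that left out an array, and 5 alternatives besides the averaging ended it (adjusted p from 0.0601 to 0.277).

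The serine pathway enzymes Phgdh, Psat1 and Psph had log2 fold changes of -0.23, -0.16 and -0.22 for Ube2m shRNA against control (limma, adjusted p = 0.427, 0.568 and 0.577). For Ube2f shRNA against control they had -0.22, -0.09 and 0.02 (adjusted p = 0.508, 0.803 and 0.981). Mthfd2, of mitochondrial folate metabolism, was at -0.15 with Ube2m shRNA and 0.10 with Ube2f shRNA against control, and at -0.25 between them (adjusted p = 0.138). Over the 8 enzymes the median was -0.02 for Ube2f shRNA against control and -0.24 for Ube2m shRNA against Ube2f shRNA. Without Ube2m replicate 3 the median between the knockdowns was -0.10, with 3 of 8 above 0, without Ube2f replicate 2 it was -0.16 and without Ube2f replicate 3 it was -0.36. The median for Ube2f shRNA against control lay between -0.12 and 0.07 when 1 array was left out, at -0.12 without Ube2f replicate 2, -0.07 without Ube2f replicate 1, -0.11 without control replicate 3, 0.02 without control replicate 1 and 0.07 without Ube2f replicate 3.

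The 7 transporters divided in direction under Ube2m shRNA. Slc7a5 and Slc1a5 fell and Slc38a2 rose against control, while Slc1a4 and Slc6a9 were higher than with Ube2f shRNA. Their median log2 fold change was -0.01 with Ube2m shRNA and -0.22 with Ube2f shRNA against control, and 0.18 between the knockdowns. Over all genes tested these medians were -0.04, 0.01 and -0.04. The median against control lay between -0.06 and 0.08 with Ube2m shRNA when 1 array was left out, above 0 without Ube2m replicate 3, control replicate 1 or control replicate 2, and was -0.13 with Ube2f shRNA without Ube2f replicate 3. None of the 7 passed in limma with Ube2f shRNA against control, beside 5.19% of all genes tested. There 3 lower ones had an unadjusted p under 0.05, as had 2147 of all 10613 genes in either direction.

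Slc1a5, the transporter ASCT2 for glutamine and other neutral amino acids, had signals of 1008.8, 1096.9 and 1211.1 with Ube2m shRNA, 1313.6, 1423.2 and 1315.4 with Ube2f shRNA, and 1934.9, 1630.3 and 1561.8 with control shRNA. The groups did not overlap and followed the order seen for Atf5. Its log2 fold change was -0.62 (SE 0.12) for Ube2m shRNA against control (limma, adjusted p = 0.00672) and passed in all 9 fits without an array. For Ube2f shRNA against control it was -0.33 (adjusted p = 0.129) and between the knockdowns -0.29 (adjusted p = 0.122). A second probe set, with a mean signal of 49.9 that lies under the low level, gave 0.49 against control, and averaging both left -0.07 (adjusted p = 0.925).

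Slc7a5, the light chain of the large neutral amino acid transporter LAT1, had signals of 3577.8, 4137.6 and 3401.7 with Ube2m shRNA, 4177.6, 4372.5 and 3672 with Ube2f shRNA, and 6315.2, 4889 and 4903.4 with control shRNA. Both knockdowns lay below every control array, and control replicate 1 was the highest. The log2 fold change was -0.53 (SE 0.13) for Ube2m shRNA and -0.39 (SE 0.13) for Ube2f shRNA against control (limma, adjusted p = 0.022 and 0.1). The Ube2m call was lost without control replicate 1, Ube2m replicate 1 or Ube2m replicate 3, with each array centred on its median (adjusted p = 0.119) and with the beta-actin ratio in the model (0.0931). Slc3a2, its heavy chain, was at -0.04 with Ube2m shRNA and -0.22 with Ube2f shRNA against control, and neither passed (adjusted p = 0.844 and 0.218).

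Slc38a2, the sodium-coupled neutral amino acid transporter SNAT2, had signals of 6588.2, 6297.9 and 6896.2 with Ube2m shRNA, 5819.6, 5493.7 and 5917.3 with Ube2f shRNA, and 4759.7, 4924.6 and 5430.1 with control shRNA. The groups did not overlap, with Ube2m shRNA highest and control lowest. It rose with Ube2m shRNA by 0.39 on the log2 scale (SE 0.09; limma, adjusted p = 0.0231), and with Ube2f shRNA it was at 0.19 (adjusted p = 0.284). The call was lost without any 1 of the Ube2m arrays, control replicate 1 or control replicate 2 (adjusted p 0.0615 to 0.0893), with the beta-actin ratio in the model (0.0898) or with each array centred on its median (0.323), and averaging 3 probe sets gave 0.24 (adjusted p = 0.352).

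Slc1a4, the transporter ASCT1 for serine, alanine and other small neutral amino acids, had signals of 1482.8, 1469.2 and 1293.3 with Ube2m shRNA, 949.5, 918.9 and 632 with Ube2f shRNA, and 1288.2, 887.1 and 943.8 with control shRNA. The Ube2m shRNA arrays were above all others, though the lowest of them was barely above control replicate 1. Between the knockdowns the log2 fold change was 0.77 (SE 0.17; limma, adjusted p = 0.00941), and it passed in all 9 fits without an array but not with each array centred on its median (adjusted p = 0.085). All 3 Slc1a4 probe sets were higher with Ube2m shRNA than with Ube2f shRNA, from 0.77 to 0.99. Against control it was at 0.46 with Ube2m shRNA and -0.32 with Ube2f shRNA (adjusted p = 0.122 and 0.337).

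Slc6a9, the glycine transporter GlyT1, had signals of 1548.3, 1449.5 and 1638.8 with Ube2m shRNA, 903.3, 1188.6 and 1276.9 with Ube2f shRNA, and 1173.3, 1025.7 and 1192.3 with control shRNA. All Ube2m shRNA arrays were above all others. The log2 fold change was 0.47 (SE 0.14) against Ube2f shRNA (limma, adjusted p = 0.0332), lost without any 1 of the Ube2m arrays, Ube2f replicate 1 or Ube2f replicate 2 or with each array centred on its median (adjusted p = 0.103), and 0.45 against control (adjusted p = 0.0571). Slc7a1, the cationic amino acid transporter CAT1, was at -0.01 with Ube2m shRNA and 0.04 with Ube2f shRNA against control, with 95% intervals of -0.23 to 0.22 and -0.19 to 0.27.

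Among the 10 tRNA synthetases, which charge tRNAs with their amino acids, Tars alone passed. That is 10% both for Ube2m shRNA against control and between the knockdowns, beside 9.71% and 15.8% of all genes tested. Log2 fold changes were negative for 9 of 10 with Ube2m shRNA against control and for 10 of 10 against Ube2f shRNA. The medians of the 10 were -0.28 for Ube2m shRNA against control, 0.00 for Ube2f shRNA against control and -0.26 between the knockdowns. Over all genes tested these medians were -0.04, 0.01 and -0.04. Without Ube2m replicate 3 the median for Ube2m shRNA against control was -0.17, and that for Ube2f shRNA against control lay between -0.07 (without control replicate 3) and 0.07 (without control replicate 1) when 1 array was left out. The mean of the 10 on each array, relative to the control mean, was -0.162, -0.172 and -0.465 on the log2 scale with Ube2m shRNA, 0.013, 0.107 and -0.148 with Ube2f shRNA, and 0.168, 0.017 and -0.185 with control shRNA. The replicate 3 array was the lowest of each group, and control replicate 3 was below Ube2m replicates 1 and 2, as the plot of class means shows.

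Tars, the threonyl-tRNA synthetase, had signals of 3464.4, 3346.8 and 2714.7 with Ube2m shRNA, 4368.2, 4464.3 and 4375.3 with Ube2f shRNA, and 5136, 4310.7 and 4145.2 with control shRNA. Every Ube2m shRNA array was below every other array. Its log2 fold change was -0.51 (SE 0.12) for Ube2m shRNA against control and -0.48 (SE 0.12) against Ube2f shRNA (limma, adjusted p = 0.0186 and 0.0159), and -0.03 for Ube2f shRNA against control. The call against control was lost without Ube2m replicate 2, Ube2m replicate 3 or control replicate 1, and the call against Ube2f shRNA without Ube2m replicate 3 or Ube2f replicate 1. Centring each array on its median ended both calls (adjusted p = 0.117 and 0.177), and the beta-actin ratio in the model ended the one against control (0.0816).

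The other synthetases did not pass against control. With Ube2m shRNA, Eprs (glutamate and proline) was at -0.43, Mars (methionine) at -0.36, Lars (leucine) at -0.36, Wars (tryptophan) at -0.31, Sars (serine) at -0.26, Aars (alanine) at -0.21, Gars (glycine) at -0.20, Iars (isoleucine) at -0.05 and Nars (asparagine) at 0.02, with limma adjusted p from 0.131 to 0.952. With Ube2f shRNA these 9 ran from -0.16 (Eprs) to 0.10 (Aars). Between the knockdowns, 3 of them passed once the replicate number was a block: Sars at -0.31 (limma, adjusted p = 0.0136, against 0.178 without the block), Lars at -0.32 (0.032 against 0.16) and Gars at -0.25 (0.0499 against 0.242). The probe sets not kept did not all give the same values for Ube2m shRNA against control. Those above the low level gave -0.08 and 0.07 for Eprs, and -0.04, -0.02 and -0.35 for Wars. For Iars, Nars, Aars and Sars they gave -0.33, -0.18, -0.30 and -0.24.

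**Figure D4:**
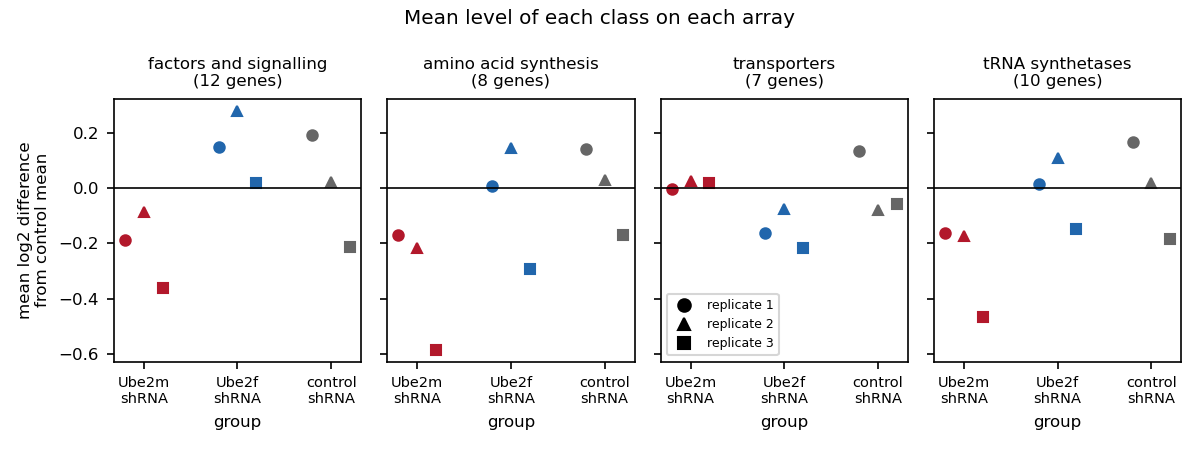
Mean log2(signal + 16) of the genes of each of 4 roles on each array, minus the mean of the control shRNA arrays, by group, with marker shape for replicate. In all panels but that of the transporters the replicate 3 array is the lowest of its group, and the Ube2m shRNA arrays overlap the control arrays for the tRNA synthetases.

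Of the other targets, Chac1, an enzyme that breaks down glutathione, had signals of 1200.6, 1252.2 and 1147.3 with Ube2m shRNA, 1710.3, 1752.2 and 1480.7 with Ube2f shRNA, and 1487.9, 1457.2 and 1044.4 with control shRNA. The knockdowns did not overlap, and the control arrays overlapped both. Between the knockdowns the log2 fold change was -0.45 (SE 0.14; limma, adjusted p = 0.0452), lost without any 1 of the Ube2m arrays, Ube2f replicate 1, Ube2f replicate 2 or control replicate 2, and with 4 of the other alternatives (adjusted p from 0.0582 to 0.237). Against control Chac1 was at -0.13 with Ube2m shRNA and 0.32 with Ube2f shRNA (adjusted p = 0.625 and 0.218). Vldlr, a lipoprotein receptor, had -0.06 and 0.11, and Stc2, a secreted glycoprotein, had 0.07 and 0.14, none of which passed.

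Genes with the composite core in their promoter were mostly lower with Ube2m shRNA than with Ube2f shRNA, as were 34 of the 40 members. Of those called, Asns, Tars and Chac1 were lower and Slc1a4 was higher. The others with a probe set were not called without the replicate block: Trib3 (-0.67), Atf3 (-0.44), Aars (-0.31), Nupr1 (-0.29), Gars (-0.25), Vldlr (-0.17) and Iars (-0.13). The windows of Atf5, Ddit3, Aldh18a1 and Slc6a9, which also differed, held no match, and Cth was not searched.

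Beyond these members, 107 further genes tied to the pathway were listed, also with earlier results of these data known, and 93 of them were tested. With Ube2m shRNA, 3 rose and 6 fell against control, 9.68% of the 93, a share near the 9.71% of all genes tested, and the median of the 93 was -0.09. Slc7a11, the cystine transporter xCT, had signals of 456.8, 576.8 and 438.5 with Ube2m shRNA, 155.2, 136 and 116.8 with Ube2f shRNA, and 202.4, 188.7 and 147.6 with control shRNA. All Ube2m shRNA arrays were above all others, and the log2 fold change was 1.37 against control and 1.73 against Ube2f shRNA (limma, adjusted p = 0.000749 and 5.64e-05). Among 28 further ATF4-linked targets tested, 3 rose and 4 fell with Ube2m shRNA against control, among them the mitochondrial folate enzymes Mthfd1l at -0.77 and Aldh1l2 at -0.74 (limma, adjusted p = 0.00106 and 0.00233) and Cdsn, a cell adhesion protein of cornified skin, at -1.47 (adjusted p = 6.33e-05). The bZIP partner Cebpd was at -0.87 (adjusted p = 0.0016), and of 16 mitochondrial tRNA synthetases 1 fell, Vars2, at -0.79 (adjusted p = 0.0381).

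With Ube2f shRNA, 3 of the 93 rose and 4 fell against control, 7.53% beside 5.19% of all genes tested (2.23% higher and 2.96% lower). The bZIP genes Fos and Atf7 rose by 1.10 and 0.67 on the log2 scale (limma, adjusted p = 0.0406 and 0.0394). Slc38a1, a neutral amino acid transporter, fell, at -0.76 (adjusted p = 0.00262), as did Impact, an inhibitor of the eIF2 kinase GCN2, at -0.61, and the Ras-family gene Rras2, at -0.58 (adjusted p = 0.012 and 0.0153). Of 9 other cytosolic tRNA synthetases, Hars rose, at 0.54, and Vars fell, at -0.56 (adjusted p = 0.0221 and 0.0479).

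Between the knockdowns 22 of the 93 differed, 11 higher and 11 lower with Ube2m shRNA, or 23.7% beside 15.8% of all genes tested (6.37% higher and 9.38% lower). Of 12 bZIP partners tested, 1 was higher and 5 were lower, among them Atf7 at -1.07, Jund at -0.95, Jun at -0.66 and Cebpd at -0.57 (limma, adjusted p = 0.00109, 0.00172, 0.00593 and 0.0114). Of 28 further ATF4-linked targets, 6 were higher and 6 lower, with Slc38a1 at 0.84 and Aldh1l2 at -0.78 (adjusted p = 0.000448 and 0.000875). Of 18 genes of the eIF2 kinases, eIF2, eIF2B and its phosphatase, 2 were higher, Impact at 0.39 and Eif2s3x, a subunit of eIF2, at 0.40 (adjusted p = 0.0446 and 0.0418). Of 10 other synthesis enzymes 2 were higher, Asl of arginine synthesis at 0.61 and Gpt, alanine aminotransferase, at 0.72 (adjusted p = 0.0186 and 0.0263). None of 9 other cytosolic and 16 mitochondrial synthetases passed in limma in this comparison. At an unadjusted p under 0.05 there were 4 and 3 of them, beside 3047 of all 10613 genes tested.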

How the data were processed

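RNA from 9 cultures was measured on Affymetrix arrays, and the deposited values are intensity, a linear signal per probe set, made with MAS5 per the submitters' processing notes. The sources used here give neither its version nor its settings. With the top and bottom 2% left out, the mean of the 45101 probe sets was 500 on every array, so arrays had been scaled by 1 factor and differences in the shape of the distribution remain. Total RNA (6 ug) was used for labelling, per the labels. The number of arrays limits the precision, and no depth applies.

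Signals were analysed as log2(signal + 16), so fold changes of low genes are understated. Left out were 64 control probe sets, 932 assigned to several genes and 9160 without a gene name, which left 34945. No deposited column was left unused (0). Genes whose mean reached 6.12 (a signal of 53.8), the median of all non-control probe sets, were tested. All 9 arrays were fitted with limma 3.58.1 in R 4.3.3, with 1 mean per group and an intensity trend in the variance. All p-values are two-sided, with Benjamini-Hochberg adjustment over 10613 genes and a threshold of 0.05 in each of 3 comparisons. The comparisons with control share its arrays, and for 3 arrays against 3 the smallest exact permutation p is 0.1.

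Same-numbered arrays of the 2 knockdowns deviated together (correlations of 0.201, 0.211 and 0.557 across genes, all over 0.1), so the replicate number was taken to pair them, from the data and not from the labels. For the control it was not, since replicate 1 did not reach 0.1 (-0.005, 0.185 and 0.317 with Ube2m shRNA, and 0.015, 0.157 and 0.349 with Ube2f shRNA). Control replicate 3 still deviated together with replicate 3 of both knockdowns. Control replicates 1 and 2 gave -0.063 and -0.324 with Ube2m replicate 3, and -0.106 and -0.319 with Ube2f replicate 3. The main fit used no pairing. Between replicates 1 and 2 of the knockdowns the correlations across numbers were 0.276 and 0.192, so the pairing rested mainly on replicate 3.

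Genes and lists were chosen with earlier results of these data known. Every member is accounted for, values on every array are given for members called in any comparison and for Atf4, and of the further pathway genes at most the 4 with the smallest p per list and comparison are named. Alternatives covered the constant, the probe sets, centring, the filter, the replicate block, replicates 1 and 2 alone, the beta-actin ratio and each array left out.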

Additional observations from a re-analysis of the deposited data

How the results depend on the processing

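No called log2 fold change changed sign under any alternative run. Of 712 recomputed values of the 40 genes in each comparison, 35, 24 and 46 lost a call and 24, 5 and 12 gained one, for Ube2m shRNA over control, Ube2f shRNA over control and Ube2m over Ube2f shRNA, the order kept below. Leaving out 1 array gave 2 to 8, 0 to 2 and 3 to 12 members called, and 388 to 1177, 195 to 583 and 1017 to 1813 of all genes, where the full sets gave 7, 3 and 9 members and 1031, 551 and 1672 genes. Without control replicate 1 the first 2 comparisons had 472 and 281 genes. In separate fits without Ube2m replicate 1 and without Ube2m replicate 2 the first had 443 and 388 and the last 1063 and 1017. Without Ube2f replicate 1 the other 2 had 195 and 1018, and without Ube2f replicate 2 the second had 342.

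With the replicate block, 17 members and 1866 genes passed for Ube2m shRNA against control and 5 members and 1225 genes for Ube2f shRNA against control, although the numbers were not taken to pair those arrays. It gave 13 members and 2493 genes between the knockdowns, and beyond Trib3, Sars, Lars and Gars it changed no other member's call there. Not every array correlated best with its own number: Ube2m replicate 1 did so with Ube2f replicate 2 (0.276 against 0.201). With replicates 1 and 2 only, 15, 5 and 13 members and 1747, 1121 and 2032 genes passed.

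Centring each array on the median of all its probe sets left 2, 0 and 1 members and 525, 222 and 868 genes, split 124 higher to 401 lower, 50 to 172 and 356 to 512, beside 381 to 650, 237 to 314 and 676 to 996. In the limma fit with 0 members called, 4 of the 40 had an unadjusted p under 0.05, beside 1498 of the 10613 genes tested. Centring on the genes tested, chosen after the data were seen, gave 7, 2 and 6 members and splits of 534 to 432, 240 to 307 and 856 to 745. All genes' median was then 0.04 for Ube2m shRNA against control and -0.12 with the first centring, and the members' median was between -0.11 and -0.28. The median of the tRNA synthetases stayed below 0 in that comparison under both, and the signs of the medians of transporters and other targets turned under the second. For Ube2f shRNA over control the members' median turned to -0.03 and that of the factors to -0.01 under the first. The members below 0 numbered 34 and 25 of 40 with Ube2m shRNA over control under the 2 centrings, beside 30. The beta-actin covariate left 2, 0 and 8 members and 448, 249 and 1661 genes. Where limma called 0 members with it, 6 of 40 had an unadjusted p under 0.05, beside 1651 of the 10613 genes tested. Averaged probe sets left 607, 271 and 1109 genes, and leaving out probe sets that may match several transcripts left 1 member for Ube2f shRNA against control, since Atf5 then had no probe set and Shmt2 had another one (-0.34, adjusted p = 0.083). The cause of the other changes was not tested. Having 3 arrays per group limits what could be called. Signals near background limit it further for genes outside the 40 members, all of which lay above the low level.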
